A study of Mus musculus with 6 samples.

Results

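Livers of APAP-overdosed mice were compared with livers of saline-treated mice for 9 genes that carry out or restrain regulated cell death. The genes were taken by name from the deposited table of 34745 genes, and all 9 were found. They were *Ripk1*, *Ripk3* and *Mlkl* (necroptosis), *Casp8* (the caspase that steers between apoptosis and necroptosis), *Casp1* and *Gsdmd* (pyroptosis), and *Mcl1*, *Bcl2l1* and *Bcl2l11* (the BCL2 family). The filter on low counts removed 0 of them and left 13734 genes to test.

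The mice were WT C57BL/6J mice, described in the methods as male and aged 8–10 weeks, and all of them were fasted for 12 hours before injection. The APAP group received acetaminophen (300 mg/kg, 12 hours before sampling) and the control group received saline. Of the 6 livers in the series, 5 libraries were analysed: APAP replicates 1 and 3, and 3 control libraries in columns named WT1, WT2 and WT3. APAP replicate 2 was not analysed here. The WT columns were taken for the saline livers, since the remaining columns are named for APAP, although every sample carries the WT genotype label, and each fold change rests on that reading. The labels do not say that the libraries of a group came from separate mice, so the p-values measure the spread between these libraries.

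The libraries held between 13378445 and 15976339 counts, and 3 counts corresponded to between 0.176 and 0.269 CPM. CPM are counts scaled to a common library size, here after normalization by the TMM method. *Alb*, the hepatocyte gene for albumin, was between 51544 and 89798 CPM with APAP and between 95101 and 129120 CPM with saline. The control and APAP libraries also differed in sex-linked genes. *Xist*, the RNA that coats an inactive X, was at 0.764 and 1.73 CPM with APAP and between 289.6 and 914 CPM with saline, and the Y-linked *Ddx3y* had at least 998 counts in each APAP library and at most 1 count in each saline library. All 3 saline libraries thus went against the description of the mice as male, and no comparison without them was possible. Treatment and sex-linked expression cannot be told apart for any value below.

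Regulated cell death runs along several routes that share components. In necroptosis, death receptor signals activate the kinase RIPK1, which assembles with RIPK3. RIPK3 then phosphorylates MLKL, the pseudokinase that permeabilizes the plasma membrane. Caspase-8 cleaves the RIP kinases and blocks this route while it promotes apoptosis. In pyroptosis, inflammasomes activate caspase-1, which cleaves gasdermin D into a pore-forming fragment. In mitochondrial apoptosis, pro-survival proteins such as MCL1 and BCL-XL (the product of *Bcl2l1*) hold BAX and BAK in check, and BH3-only proteins such as BIM (the product of *Bcl2l11*) relieve that restraint. APAP overdose is known for centrilobular hepatocyte necrosis. In whole liver, a change in the cells present and a change in RNA per cell cannot be told apart.

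*Mlkl* and *Mcl1* rose with APAP, and no member fell. *Mlkl* was 7.24-fold and *Mcl1* 2.09-fold higher in mean CPM, and these 2 of 9 genes (22.2%) had an adjusted p under 0.05 in edgeR's quasi-likelihood test (called below), against 3.7% of all tested genes in that direction and 7.23% in either direction. At the thresholds named in the study (fold change of at least 1.5 and unadjusted P under 0.05), 6 of the 9 were higher, against 12.3% of all tested genes, and 0 were lower, against 11.2%. The additional 4 were *Bcl2l1*, *Ripk3*, *Bcl2l11* and *Casp8*. In the same 6 genes both APAP libraries lay above all saline libraries, which held for 24% of all tested genes. In 0 of the 9 both lay below them, which held for 20.1%. *Ripk1*, *Casp1* and *Gsdmd* overlapped between the groups. The median log2 fold change of the 9 genes was 1.07, against 0.03 for all tested genes. The number of genes past the adjusted threshold depended on single libraries. It was 0 without WT2, 1 without WT1 and 4 without WT3. Of all tested genes, 1.23% passed without WT2, 3.72% without WT1 and 6.84% without WT3, against 7.23% with all 5 libraries. Scaling to library size only also gave 4 genes, beside 9.75% of all tested genes, with the median of all tested genes then at 0.42 in place of 0.03.

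**Figure D1:**
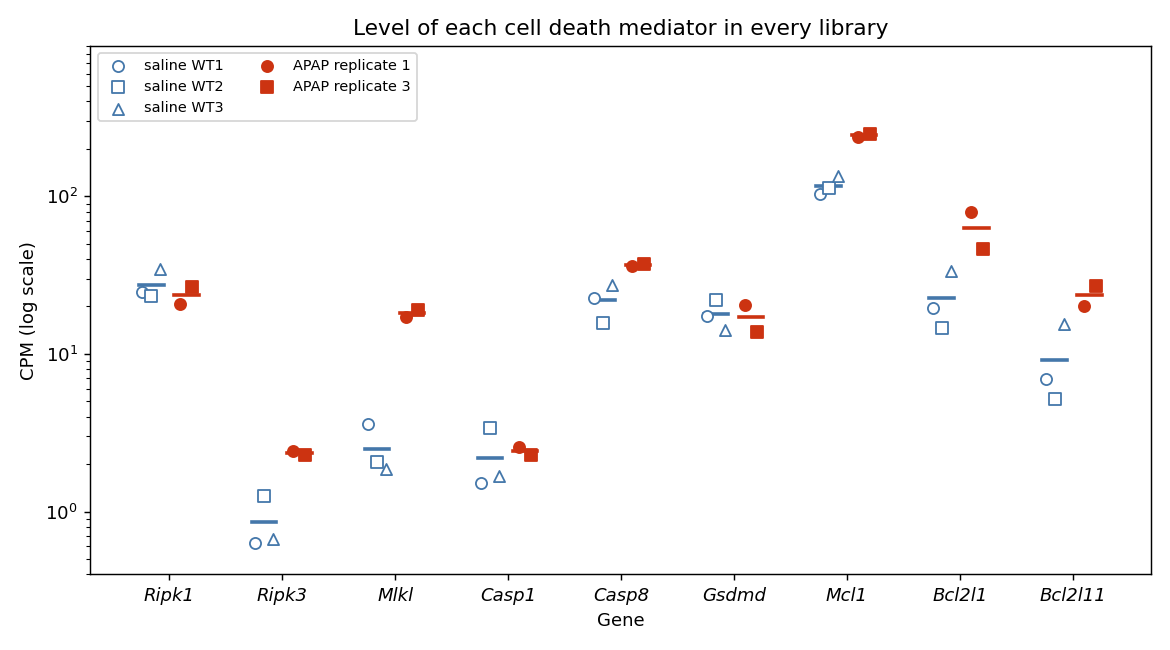
Level of the 9 genes in every library, as CPM on a log axis, with open blue symbols for the 3 saline libraries, filled red symbols for the 2 APAP libraries and bars at the group means. Both APAP symbols lie above all saline symbols for Ripk3, Mlkl, Casp8, Mcl1, Bcl2l1 and Bcl2l11, and the groups overlap for Ripk1, Casp1 and Gsdmd.

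The levels of the genes were compared with each other per length, as RPKM computed from the normalized counts and the exon length of each gene in GENCODE M21. In saline livers *Mcl1* was the most abundant member (34.1 ± 4.53 RPKM, SD, n = 3), followed by *Casp8* (7.58 ± 2.01), *Gsdmd* (7.50 ± 1.70) and *Bcl2l1* (4.93 ± 2.15), whose libraries overlapped with each other. *Ripk1* was at 3.29 ± 0.731 RPKM, and its range overlapped with that of *Bcl2l1*. Within each saline library, however, *Ripk1* was below *Bcl2l1* and *Casp8* was above it. *Casp1* (1.47 ± 0.692), *Bcl2l11* (1.15 ± 0.693) and *Mlkl* (1.09 ± 0.408) formed a lower group with overlapping libraries, and *Ripk3* was lowest (0.372 ± 0.155 RPKM), below each of them in every library. In APAP livers *Mcl1* was again highest (71.4 ± 2.60 RPKM, SD, n = 2), and *Ripk3* was again lowest (1.02 ± 0.0376). *Mlkl* (7.87 ± 0.597 RPKM) then overlapped with *Gsdmd* (7.24 ± 2.0) and exceeded *Ripk1* (2.83 ± 0.474) in both APAP libraries. The order of *Mlkl* and *Ripk1* rests on the exon lengths used, 2303 and 8344 bases. In CPM *Mlkl* (17.2 and 19.1) was below *Ripk1* (20.8 and 26.4) in the APAP libraries. GENCODE also ends *Ripk1* at 34037147, beyond the deposited end at 34035170.

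Among the kinases of necroptosis, *Ripk1* (ENSMUSG00000021408, chromosome 13 of GRCm38, 34002363 to 34035170) encodes the upstream kinase. It was at 20.8 and 26.4 CPM after APAP, against 24.6, 23.2 and 34.4 CPM in WT1, WT2 and WT3. The groups overlapped, with 1 saline library above both APAP libraries. The log2 fold change was −0.22 (standard error 0.25), and the Benjamini-Hochberg adjusted p of edgeR's quasi-likelihood test was 0.648. With scaling to library size only the log2 fold change was 0.16, which is −0.26 relative to the median of all tested genes. The exons of *Ripk1* overlap those of the pseudogene *Gm17084* on the same strand by 511 bases and those of *Serpinb6a* on the opposite strand by 241 bases, and other genes share 7.19% of its 50-base words, so that part of its count is uncertain.

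*Ripk3* (ENSMUSG00000022221, chromosome 14, 55784996 to 55788857) encodes the kinase that phosphorylates MLKL, and its counts were low. They were 41 and 37 after APAP, against 7, 19 and 10 in WT1, WT2 and WT3, or 2.41 and 2.29 CPM against 0.627, 1.26 and 0.668 CPM. Both APAP libraries lay above all saline libraries. Among the saline libraries only WT2 exceeded 10 counts, so the gene passed the low-count filter only with the APAP libraries. On the log2 scale the difference was 1.44 (standard error 0.52), with an unadjusted p of 0.0275 and an adjusted p of 0.146 in the same edgeR test. *Ripk3* was tested in 12 alternatives and called in 0 of them, with log2 fold changes between 1.29 and 1.84.

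*Mlkl* (ENSMUSG00000012519, chromosome 8, 111311797 to 111338177), the effector of necroptosis, showed the largest change of the 9 genes. Its counts were 292 and 309 after APAP, against 40, 31 and 28 in WT1, WT2 and WT3. In CPM these were 17.2 and 19.1 against 3.59, 2.06 and 1.87. The lower APAP library was thus well above the highest saline library, and the spread within each group was small beside the difference between them. Mean CPM rose from 2.505 ± 0.940 (SD, n = 3) to 18.1 ± 1.37 (SD, n = 2), or by 2.87 on the log2 scale (standard error 0.34), with an adjusted p of 0.00702 in that edgeR test. A larger log2 fold change was found in 247 of the 13734 tested genes (1.8%). This value stayed between 2.69 and 3.28 in all 13 alternatives. Without WT2 it was 2.74 and the adjusted p was 0.0521, and in the other 12 alternatives the adjusted p was under 0.05. None of the 50-base words of its longest protein-coding transcript occurred in another gene (0%), and its 13 exons overlap no other gene.

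The ratios of *Mlkl* to other members differed between the groups together with *Mlkl* itself. The ratio of *Mlkl* to *Ripk1* in RPKM was 2.99 and 2.62 after APAP, against 0.527, 0.322 and 0.197 in WT1, WT2 and WT3. The ratio of *Mlkl* to *Gsdmd*, which encodes the effector of pyroptosis, was 0.861 and 1.42 with APAP and 0.214, 0.0961 and 0.137 with saline. In both ratios the groups did not overlap, while *Ripk1* and *Gsdmd* themselves overlapped, so these ratios mostly restate the change of *Mlkl*. Separation was not particular to *Mlkl*. The ratio of *Ripk3* to *Ripk1* was 0.422 and 0.315 with APAP and 0.0927, 0.198 and 0.0707 with saline. That of *Casp8* to *Ripk1* was 4.99 and 4.06 against 2.66, 1.96 and 2.29. The ratio of *Mlkl* to *Ripk3*, which rests on the low *Ripk3* counts, was 7.09 and 8.31 with APAP and 5.69, 1.62 and 2.79 with saline. The size of each ratio depends on the exon lengths used. These ratios are given as a description, without a test.

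The tested genes whose levels followed *Mlkl* most closely over the 5 libraries were *Cd177*, *Krt8* and *Tnc*, with root mean square distances of 0.0853, 0.207 and 0.23 between log2 CPM centred on the mean of each gene. *Cd177*, a surface protein of neutrophils, had 15 and 19 counts with APAP and 1, 0 and 0 counts with saline, so its distance depends on the prior count of 2 added to the counts. *Krt8*, a keratin of hepatocytes and bile ducts, was at 939 and 865 CPM after APAP, against 163, 126 and 77.8 CPM with saline. *Tnc*, an extracellular matrix glycoprotein, was at 4.70 and 7.29 CPM after APAP, against 0.807, 0.664 and 0.468 CPM with saline. These genes were chosen for their likeness to *Mlkl*, and their difference between the groups was not tested for this purpose.

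*Casp8* (ENSMUSG00000026029, chromosome 1, 58795374 to 58847503) encodes the initiator caspase that restrains necroptosis. It was at 36.02 and 37.1 CPM after APAP, against 22.8, 15.7 and 27.3 CPM in WT1, WT2 and WT3. Both APAP libraries were above all saline libraries, by a smaller margin than for *Mlkl*. Its log2 fold change was 0.74 with a standard error of 0.26, and it had an unadjusted p of 0.026 and an adjusted p of 0.142 in edgeR's quasi-likelihood test. Of the 13 alternatives, only scaling to library size gave an adjusted p under 0.05 (0.0477), with a log2 fold change of 1.14, or 0.72 relative to the median of all tested genes. Other genes, chiefly *Gm20257*, share 5.05% of its 50-base words. *Cflar*, which encodes the catalytically inactive partner of caspase-8, was at 100.4 and 135 CPM after APAP, against 83.1, 117 and 144 CPM with saline, and *Fadd*, which encodes their adaptor, was at 10.5 and 7.91 against 12.6, 9.23 and 3.41 CPM. The groups overlapped in both genes.

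The pyroptosis genes of the set did not pass either threshold. *Casp1* (ENSMUSG00000025888, chromosome 9, 5298517 to 5307265) encodes the caspase of canonical inflammasomes and had 44 and 37 counts with APAP and 17, 51 and 25 counts in WT1, WT2 and WT3. The APAP libraries lay between the saline libraries. Its mean was 2.44 ± 0.211 CPM (SD, n = 2) with APAP and 2.19 ± 1.04 CPM (SD, n = 3) with saline. The log2 fold change was 0.14 (standard error 0.495), with an adjusted p of 0.891 in edgeR. At these counts a change well beyond the standard error could also go uncalled. *Ripk3*, with a standard error of 0.52, was not called at a log2 fold change of 1.44. Without WT1 or without WT3 the sign of the *Casp1* change turned, at −0.04 and −0.02. *Gsdmd* (ENSMUSG00000022575, chromosome 15, 75862339 to 75867404) encodes the pore-forming effector of pyroptosis and was more deeply counted. Its counts were 350 and 224 with APAP and 193, 333 and 211 with saline, or 20.6 and 13.8 CPM against 17.3, 22.1 and 14.1 CPM. The groups overlapped, and the difference was −0.05 on the log2 scale with a standard error of 0.28 and an adjusted p of 0.934 in edgeR. Its sign turned without WT2 (0.13), without APAP replicate 3 (0.19) and with scaling to library size only (0.35, which is −0.07 relative to the median of all tested genes).

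*Mcl1* (ENSMUSG00000038612, chromosome 3, 95658788 to 95663176) encodes a short-lived pro-survival protein. It was at 238 and 250.2 CPM after APAP, against 104, 112 and 134 CPM in WT1, WT2 and WT3. The APAP libraries were close to each other and above every saline library. Mean CPM rose from 117 ± 15.5 (SD, n = 3) to 244 ± 8.87 (SD, n = 2), or by 1.07 on the log2 scale (standard error 0.22), with an adjusted p of 0.0376 in edgeR. The size of the change held in all 13 alternatives, between 1.0 and 1.45. The adjusted p was above 0.05 without WT1 (0.0743), WT2 (0.154), APAP replicate 1 (0.16) or APAP replicate 3 (0.141).

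*Bcl2l1* (ENSMUSG00000007659, chromosome 2, 152780668 to 152831728), which encodes the pro-survival BCL-XL, was at 80.03 and 46.4 CPM after APAP, against 19.5, 14.7 and 33.7 CPM in WT1, WT2 and WT3. The APAP libraries were above all saline libraries but differed from each other more than for *Mcl1*. The log2 fold change of 1.48 (standard error 0.39) exceeded that of *Mcl1*, with an unadjusted p of 0.00721 and an adjusted p of 0.0718 in edgeR's quasi-likelihood test. The adjusted p was under 0.05 in 6 of 13 alternatives, among them the fit without WT3, in which the log2 fold change was 1.89.

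*Bcl2l11* (ENSMUSG00000027381, chromosome 2, 128126038 to 128162547), which encodes the BH3-only protein BIM, was at 20.2 and 27.0 CPM after APAP, against 6.90, 5.18 and 15.6 CPM in WT1, WT2 and WT3. The groups did not overlap, and WT3 lay between the other saline libraries and the APAP libraries. The difference was 1.35 on the log2 scale with a standard error of 0.46 and, in edgeR, an unadjusted p of 0.0213 and an adjusted p of 0.127. Without WT3 the log2 fold change was 1.97 and the adjusted p 0.0222, and in the other 12 alternatives the adjusted p was above 0.05.

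WT3 was thus the saline library with the highest *Mcl1*, *Bcl2l1*, *Bcl2l11* and *Casp8*. The RPKM ratio of *Bcl2l11* to *Mcl1* was 0.0362 and 0.046 with APAP and 0.0284, 0.0196 and 0.0496 with saline, and the ratio of *Bcl2l1* to *Mcl1* was 0.251 and 0.138 against 0.141, 0.0974 and 0.188. In contrast to the ratios with *Mlkl*, these overlapped between the groups.

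The sequences just upstream of the annotated starts are shown for the 2 members that rose and for *Bcl2l11*, the member with a match to a forkhead motif. They are the 250 bases before a start in the RefSeq annotation of GRCm38.p6, which held promoters for 8 of the 9 genes (not *Gsdmd*), in 12 windows. Each was searched on both strands for 7 motifs: AP-1 (TGANTCA), the cAMP response element (TGACGTCA), the interferon-stimulated response element (GAAA, any 2 bases, GAAA), FOXO (GTAAACA), STAT (TTCNNNGAA), NF-κB (GGG, any 2 bases, TTTCC) and the E-box (CACGTG). Capitals mark a match, and *Mlkl* had none.
Mlkl, chr8:111338206-111338455, minus strand: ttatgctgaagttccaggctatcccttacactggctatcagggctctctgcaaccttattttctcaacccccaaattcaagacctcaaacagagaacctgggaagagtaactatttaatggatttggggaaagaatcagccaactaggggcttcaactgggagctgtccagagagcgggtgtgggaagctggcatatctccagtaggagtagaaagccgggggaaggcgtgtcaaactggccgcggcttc
Mcl1, chr3:95658471-95658720, plus strand: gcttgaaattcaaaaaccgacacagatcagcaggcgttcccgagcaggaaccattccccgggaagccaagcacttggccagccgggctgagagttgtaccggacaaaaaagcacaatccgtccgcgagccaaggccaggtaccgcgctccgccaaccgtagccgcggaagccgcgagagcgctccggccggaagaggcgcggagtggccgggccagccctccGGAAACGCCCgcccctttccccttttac
Bcl2l11, chr2:128125788-128126037, plus strand: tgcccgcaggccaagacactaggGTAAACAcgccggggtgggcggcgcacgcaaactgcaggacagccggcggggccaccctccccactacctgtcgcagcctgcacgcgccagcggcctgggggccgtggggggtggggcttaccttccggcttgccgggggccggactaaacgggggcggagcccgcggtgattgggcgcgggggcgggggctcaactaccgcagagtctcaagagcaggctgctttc

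The *Mcl1* window held an NF-κB match that begins 28 bases before the start, and the *Bcl2l11* window a FOXO match that begins 227 bases before the start. Over 32536 distinct promoter windows of this length, 1.4% held the NF-κB letters and 3.17% the FOXO letters. A *Bcl2l1* window also held an NF-κB match, *Casp1* and *Ripk3* an E-box (6.04% of all windows), and a *Ripk1* window STAT matches (7.04% of all windows). Matches thus occurred in members whose groups overlapped as well as in members whose groups did not. A match describes the letters and no binding was measured.

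The wider genes of these routes were read from 4 lists with 94 genes, of which 88 were tested. Without the 9 members, 79 tested genes remained. Of these, 4 were higher (5.06%, against 3.7% of all tested genes) and 2 lower (2.53%, against 3.53%), and 73 did not pass the adjusted threshold. The median log2 fold change of the 79 was 0.15, against 0.03 for all tested genes. Among the 4 higher genes, *Bcl2l14* and *Cidec* passed the low-count filter only with the APAP libraries, where they were high. With the members included, 6 genes were higher and 2 lower. Without WT2 these counts were 2 and 0, and without WT1 they were 4 and 1. Of all tested genes, 1.23% passed in either direction without WT2 and 3.72% without WT1, against 7.23% with all 5 libraries. DESeq2 gave 10 higher and 5 lower, beside 15.2% of all tested genes in either direction.

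**Figure D2:**
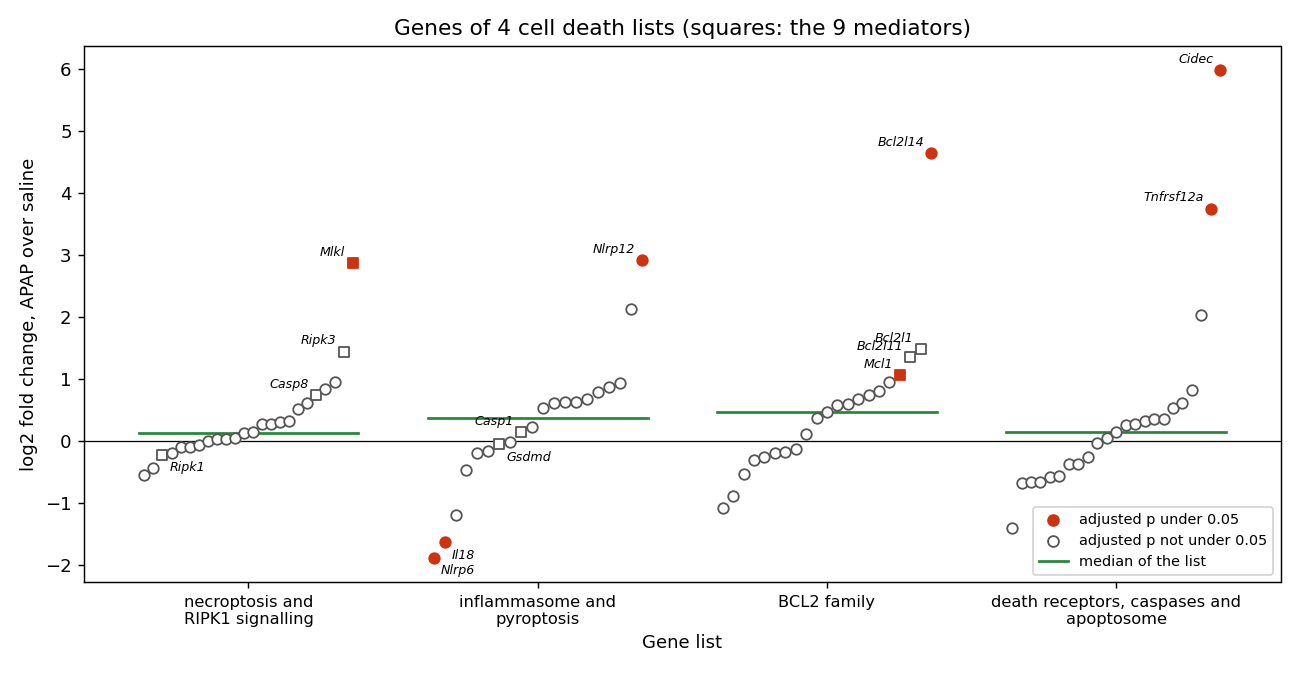
Log2 fold change (APAP over saline) of the tested genes of 4 cell death lists, ordered by value within each list, with squares for the 9 mediators, red fill for an adjusted p under 0.05 and green lines at the list medians. Mlkl, Nlrp12, Mcl1, Bcl2l14, Tnfrsf12a and Cidec are the genes called higher and Nlrp6 and Il18 those called lower, and the medians lie between 0.14 and 0.47.

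In the list of necroptosis and RIPK1 signalling, 24 of 25 genes were tested and *Mlkl* was the only gene past the adjusted threshold in edgeR's quasi-likelihood test. The share higher was thus 4.17%, against 3.7% of all tested genes. At the thresholds named in the study 6 of the 24 (25%) were higher, against 12.3% of all tested genes, and 0 were lower, against 11.2%. Of these 6, *Mlkl*, *Ripk3* and *Casp8* are members, and without the members 3 of 20 genes (15%) were higher. *Tnfrsf1a*, the receptor through which TNF engages RIPK1, was at 139 and 114 CPM after APAP, against 73.5, 63.0 and 74.1 CPM with saline (log2 fold change 0.85, adjusted p = 0.0591). *Zbp1*, a RIPK3-binding sensor of nucleic acids, overlapped between the groups (2.76 and 3.71 against 6.01, 2.52 and 1.74 CPM). *Tnf* itself had 5 and 10 counts with APAP and 0, 7 and 7 counts with saline and was not tested.

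In the list of inflammasomes and pyroptosis, all 20 genes were tested. Of these, 1 was higher (5%, against 3.7% of all tested genes) and 2 were lower (10%, against 3.53%). *Nlrp12*, an NLR protein known to restrain inflammatory signalling, was at 110.1 and 61.9 CPM after APAP, against 11.9, 10.2 and 12.2 CPM with saline (log2 fold change 2.91, standard error 0.28, adjusted p = 0.00433, edgeR). It was called in each of the 13 alternatives. *Nlrp6*, an NLR protein of epithelia, was at 33.8 and 34.2 CPM against 73.1, 168 and 134 CPM (log2 fold change −1.88, adjusted p = 0.0344). *Il18*, whose product is a cytokine that caspase-1 cleaves, was at 2.59 and 2.66 CPM against 10.7, 8.30 and 5.54 CPM (log2 fold change −1.63, adjusted p = 0.0491). The adjusted p of *Nlrp6* was above 0.05 without WT2, WT3 or either APAP library, and that of *Il18* without WT1, WT2 or either APAP library, and both were also above it with scaling to library size only, as was *Il18* with upper-quartile factors (0.0563). *Nlrp3*, *Pycard*, *Casp4* and *Il1b* were not called. *Nlrp3*, an inflammasome sensor, had 22 and 42 counts with APAP and 10, 15 and 19 with saline, and *Pycard*, the adaptor, had 39 and 22 against 13, 17 and 17. *Casp4*, the caspase of the noncanonical route, had 55 and 37 counts against 21, 23 and 29, and *Il1b* had 86 and 104 against 61, 18 and 51. *Gsdme*, listed under its older symbol *Dfna5*, encodes another gasdermin and was at 6.70 and 2.16 CPM against 0.896, 1.59 and 0.534 CPM (log2 fold change 2.12, adjusted p = 0.103).

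In the list of the BCL2 family, 21 of 24 genes were tested. Of these, 2 were higher (9.52%, against 3.7% of all tested genes) and 0 lower (against 3.53%). Without the members, 1 of 18 tested genes was higher (5.56%). This gene, *Bcl2l14*, passed the low-count filter only through the APAP libraries, where it was high, so its place among the tested genes depended on its rise. Beside *Mcl1*, *Bcl2l14*, which encodes the family member BCL-G, had 94 and 37 counts with APAP and 3, 1 and 2 counts with saline. The ratio of its normalized counts was 27.1 (95% interval 12.1 to 75.1 by the Clopper-Pearson method, for counting error only), with an adjusted p of 0.0167 in edgeR's quasi-likelihood test that was above 0.05 without WT2 (0.0798) or APAP replicate 1 (0.132). Its fitted log2 fold change was 4.64, and 3.86 without APAP replicate 1. *Bax*, a pore-forming effector, was at 23.1 and 28.0 CPM after APAP, against 14.3, 14.0 and 15.7 CPM with saline (log2 fold change 0.80, adjusted p = 0.0593), and *Bak1*, the other, was at 19.0 and 17.4 against 13.4, 10.8 and 8.35 CPM (0.75, adjusted p = 0.132). In *Bid*, which links caspase-8 to mitochondria, the values were 18.9 and 22.6 against 15.6, 14.7 and 8.62 CPM (0.68, adjusted p = 0.216). The pro-survival *Bcl2* and the p53-responsive BH3-only genes *Bbc3* and *Pmaip1* overlapped between the groups, with log2 fold changes of −0.18, −0.53 and 0.60.

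Summed per length, the 7 pro-survival genes of the list were at 94.9 and 93.9 RPKM in the APAP libraries and at 40.6, 45.0 and 56.8 RPKM in WT1, WT2 and WT3. *Mcl1* made up 73.3% and 78.0% of this sum with APAP and 74.6%, 73.0% and 68.9% with saline, so its share overlapped between the groups while the sum did not. The 3 pore-forming genes were at 25.0 and 28.2 RPKM against 17.5, 15.2 and 15.2 RPKM. The 8 BH3-only genes were at 17.6 and 19.3 RPKM against 16.6, 17.3 and 15.2 RPKM, and the share of *Bcl2l11* among them was 14.3% and 17.4% against 5.19%, 3.73% and 12.8%. These classes were drawn from the list after its values were seen and are given without a test.

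**Figure D3:**
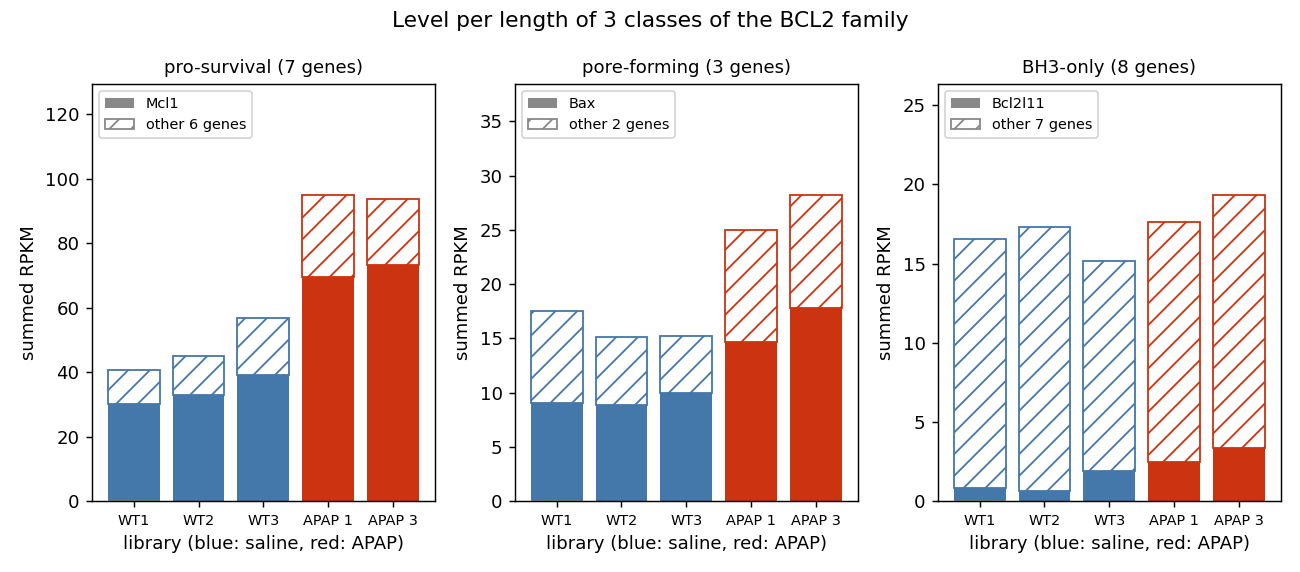
Summed RPKM of 3 classes of BCL2 family genes in each library (saline blue, APAP red), with the filled part of each bar for Mcl1, Bax or Bcl2l11 and the hatched part for the other genes of the class. Pro-survival genes sum to 94.9 and 93.9 RPKM with APAP and to at most 56.8 RPKM with saline. BH3-only genes sum to 17.6 and 19.3 RPKM with APAP and to at most 17.3 RPKM with saline. In all 3 classes both APAP libraries lie above all saline libraries, by the smallest margin in the BH3-only genes.

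In the list of death receptors, caspases and the apoptosome, 23 of 25 genes were tested. Of these, 2 were higher (8.7%, against 3.7% of all tested genes) and 0 lower (against 3.53%). *Tnfrsf12a*, the receptor for the cytokine TWEAK, was at 167 and 157 CPM after APAP, against 11.6, 6.24 and 18.3 CPM with saline (log2 fold change 3.75, standard error 0.43, adjusted p = 0.00609, edgeR), and was called in all 13 alternatives. *Cidec*, a CIDE family gene best known for a protein of lipid droplets, was at 101 and 26.0 CPM against 0.448, 0.332 and 2.14 CPM (log2 fold change 5.98, adjusted p = 0.0136). It was above the threshold without WT1 (0.0502), WT2 (0.0663) or APAP replicate 1 (0.0551), and its log2 fold change was 4.70 without APAP replicate 1, 6.64 without APAP replicate 3 and 7.34 without WT3. The initiator *Casp9*, its scaffold *Apaf1* and the death receptor *Fas* had log2 fold changes of −0.26, 0.54 and −0.68, none with an adjusted p under 0.05 in the edgeR test.

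Several of these genes are also expressed by leukocytes, and markers of other cells differed between the groups. Neutrophil markers were higher in 9 of 11 tested genes, against 3.7% of all tested genes. Of the 9, *Retnlg*, *Mmp8*, *Camp*, *Ngp* and *Trem1* had under 10 counts in each saline library. They could thus pass the low-count filter only through the APAP libraries, where they were high. The summed level of the 12 listed reached 133 and 87.2 CPM after APAP, against 5.58 to 9.55 CPM in the saline libraries, where *Camp* and *Ly6g* had 0 counts. Among monocyte markers 2 of 8 were higher, against 3.7% of all tested genes, with sums of 1510 and 2115 CPM against 1250 to 1693 CPM. *Fn1* made up most of these sums, at 1414.5 and 1954 CPM after APAP and 1166 to 1583 CPM with saline. In 4 of the 8 (*Chil3*, *Ccr2*, *Plac8* and *Itgam*) both APAP libraries lay above all saline libraries, against 24% of all tested genes. The other 4 overlapped between the groups. Of the 10 markers of Kupffer cells and macrophages 0 were called, with sums of 324 and 555.5 against 344 to 500.2 CPM. Cholangiocyte markers were higher in 2 of 5 tested genes (*Spp1* and *Sox9*), against 3.7% of all tested genes. The sums of this list were 347 and 356 against 47.1 to 52.3 CPM. *Spp1* made up most of these sums, at 276 and 313 CPM against 37.7 to 42.6 CPM. *Krt19*, *Krt7* and *Epcam* were not called and differed between APAP replicates 1 and 3. *Krt19* was at 23.6 and 2.72 against 1.25 to 2.54 CPM. *Krt7* was at 6.29 and 2.10 against 0.717 to 1.13 CPM, and *Epcam* at 8.23 and 2.41 against 1.46 to 2.34 CPM. Of the 9 hepatocyte markers 0 were called, with sums of 83000 and 137000 against 140800 to 194200 CPM. Lymphocyte, endothelial and stellate markers were not called in any of the 7, 8 and 7 genes tested. The part of these cells in the values of *Mlkl*, *Mcl1* and the other members was not tested.

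**Figure D4:**
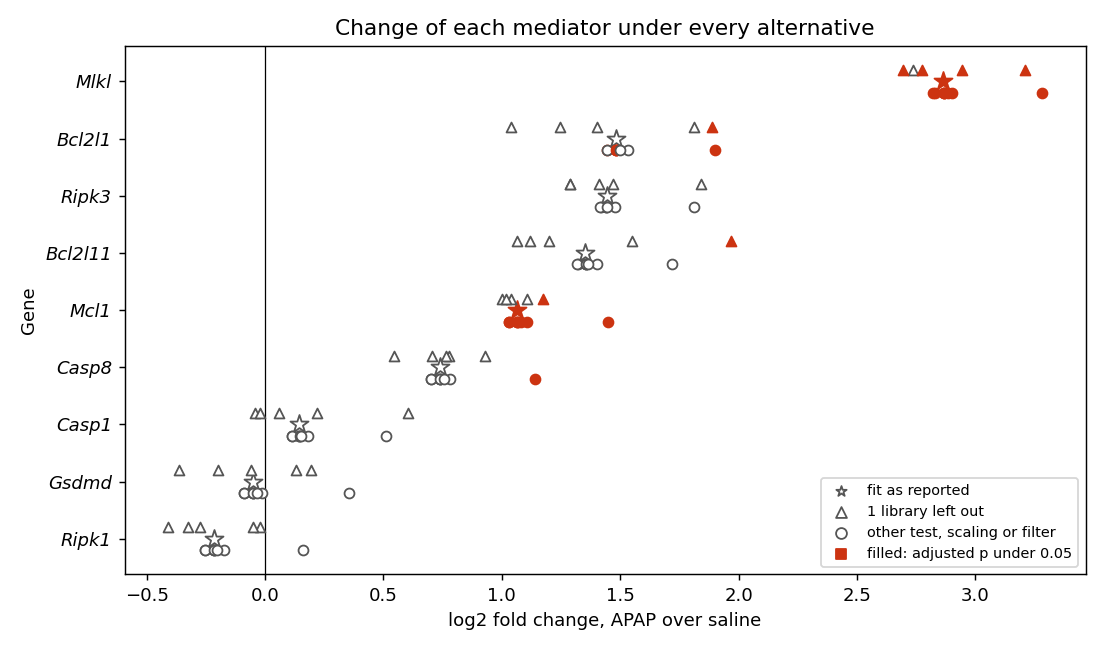
Log2 fold change of each of the 9 genes under every alternative, with stars for the fit as reported, triangles for fits without 1 library, circles for other tests, scalings or filters, and red fill for an adjusted p under 0.05. Mlkl is between 2.69 and 3.28 throughout and filled in all but the fit without WT2, and Ripk1, Gsdmd and Casp1 lie around 0 with points on both sides.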

How the data were processed

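Total liver RNA was sequenced by the authors on an Illumina NovaSeq instrument, and read counts were obtained with HISAT2. Raw counts per gene were deposited without normalization. The labels name GRCm38 (mm10), while program versions and strand setting are not given in the sources used here. The 5 deposited FPKM columns were not used, because the count columns suffice for every test.

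The tool was edgeR 4.0.16 in R 4.3.3. After filterByExpr with a minimum count of 10 and a minimum total of 15, counts were normalized by TMM and compared by the quasi-likelihood test with Benjamini-Hochberg adjustment over the 13734 genes kept. The common dispersion was 0.111. The methods name edgeR and no covariate. The fit was tested on simulated data. Within groups, no libraries were duplicates, as the chi-square statistic divided by its degrees of freedom was 43.2 to 92.2. RPKM used union exon lengths of GENCODE M21.

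The members and gene lists were chosen with earlier results of these data known. Named genes were the 9 members, list genes that passed an adjusted p of 0.05, 23 fixed components of the pathways (some of which are not reported here), and the 3 genes nearest to the member of smallest p. Alternatives were the likelihood ratio and exact tests, DESeq2 1.42.0, other scalings and filters, the thresholds of the study, and each library left out. With 1 APAP library left, its spread was assumed to equal that of the saline libraries. Depth of 13378445 to 15976339 counts limits low genes, and floors and intervals cover counting error only.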

Additional observations from a re-analysis of the deposited data

How the results depend on the processing

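No paired analysis was possible because the WT columns carry no number of a labelled saline sample, so no replicate block could be fitted. The 2 members past the adjusted threshold became 4 with scaling to library size only and 6 at a fold change of at least 1.5 with unadjusted p, and between 0 and 4 with 1 library left out. Genes called higher over all 4 lists numbered 6, and 2 to 8 with 1 saline library left out. The likelihood ratio test, the exact test and DESeq2 each gave 10. Library size only gave 12, where 1042 of the 13734 tested genes were called higher. The unadjusted threshold gave 18, members included (20.5% of the tested list genes, against 12.3% of all tested genes). Genes called lower numbered 2, and 0 to 2 with 1 saline library left out, 1 with upper-quartile factors and 0 with library size only. DESeq2 gave 5, as did the unadjusted threshold (5.68% of the tested list genes, against 11.2% of all tested genes). Over all tested genes, 993 were called, 1835 with the likelihood ratio test, 1776 with the exact test and 2093 with DESeq2, and higher genes made up 51.2% of the calls, or 77.8% with library size only. Calls over all tested genes numbered 165 without WT2, 510 without WT1 and 922 without WT3.

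*Mcl1* and *Mlkl* kept their direction in all 13 alternatives, with log2 fold changes of 1.0 to 1.18 and 2.69 to 3.21 with 1 library left out. *Bcl2l1* passed the threshold with the likelihood ratio and exact tests (1.48 in both), DESeq2 (1.45), library size only (1.90) and no filter beyond 1 count (1.48), and ranged from 1.04 to 1.89 with 1 library left out. *Bcl2l11* ranged from 1.07 to 1.97 and *Casp8* from 0.55 to 0.93 with 1 library left out, and *Casp8* passed with library size only (1.14). *Ripk1* (0.16) and *Gsdmd* (0.35) changed sign with library size only, and with 1 library left out *Gsdmd* ranged from −0.36 to 0.19 and *Casp1* from −0.041 to 0.60 (−0.02 without WT3). The cause of these changes was not tested. A filter of 10 counts in every library removed *Ripk3*, which has no value there.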

Other observations

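Other genes of the 4 lists passed the thresholds named in the study without passing the adjusted one in edgeR's quasi-likelihood test. They were chosen after their values were seen. *Bnip3*, a mitophagy receptor of the BCL2 family, was at 106 and 116 CPM after APAP, against 217, 172 and 317 CPM with saline (log2 fold change −1.08, adjusted p = 0.0879). *Ninj1*, whose product ruptures the plasma membrane of dying cells, was at 27.1 and 32.5 CPM against 99.1, 64.5 and 39.9 CPM (−1.18, adjusted p = 0.118). *Aifm1*, a mitochondrial flavoprotein that can be released in cell death, was at 55.2 and 65.6 CPM against 97.0, 98.8 and 89.3 CPM (−0.65, adjusted p = 0.107). In these 3 genes both APAP libraries lay below all saline libraries. They were picked among genes that passed downward, so this position is not a separate result. Of the 79 tested list genes without the members, 10 (12.7%) lay below in this way, against 20.1% of all tested genes. At the thresholds named in the study 5 of the 79 (6.33%) were lower, against 11.2% of all tested genes. At the same thresholds 12 (15.2%) were higher, against 12.3%.

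*Tnfaip3*, which encodes the ubiquitin-editing enzyme A20 that limits TNF signalling, was at 7.58 and 9.52 CPM against 4.66, 4.92 and 3.67 CPM (0.95, adjusted p = 0.102). *Tnfrsf10b*, the receptor for TRAIL, had 31 and 19 counts with APAP and 3, 2 and 10 counts with saline (2.03, adjusted p = 0.152).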
